A study of Mus musculus with 8 samples.

Results

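Histone genes were followed across 3 populations of mouse dendritic cell (DC) progenitors. Members were the genes whose own probe sets carried a histone symbol in the platform annotation (34 genes) or whose current RefSeq entry lists such an older symbol (9 more genes, the macroH2A genes, H2aj, H2aw, H2bu2 and H2bu1-ps among them, of which Macroh2a3 and H2bu1-ps are pseudogenes). This gave 43 histone genes of 19938 genes with a probe set of their own. Of these, 30 were counted as replication-dependent and 13 as replacement histones. In all, 41 passed the filter on low signal and were tested, 29 replication-dependent and 12 replacement genes. H3c7, a replication-dependent H3 gene, and the linker histone gene H1f8 did not pass, with log2 signals of 3.89 to 4.44 and of 3.80 to 4.27 on the 8 arrays. The major histocompatibility genes whose symbols begin with H2- were left out.

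The 8 arrays comprised Zeb2hi CDPs (3 arrays), Zeb2low CDPs (3 arrays) and Pre-CD8 DCs (2 arrays), CDP standing for common DC progenitor and Zeb2 for a zinc finger repressor. All came from bone marrow of the pelvis, tibia and femurs of mice heterozygous for a fusion of Zeb2 with green fluorescent protein, so that every group, the reference group included, carried the reporter allele. The series set out to describe expression signatures of DC progenitors along their developmental order. The cells were sorted on a cytometer after lysis of red blood cells, and their total RNA was amplified as cDNA before hybridisation. The labels used here give neither ages nor sort markers and do not say whether each array had a mouse or a sort of its own. P-values therefore measure the spread between these arrays, which may be technical. In bulk RNA, fewer cells of a type and less RNA per cell cannot be told apart.

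Replication-dependent histone genes encode the H1, H2A, H2B, H3 and H4 proteins that package newly made DNA. They lie in clusters, lack introns, are transcribed mainly in S phase, and most of their mRNAs end in a stem-loop that is bound by Slbp in place of a poly(A) tail. Replacement histones such as H2A.Z, H3.3 and macroH2A are made throughout the cell cycle, mostly from single genes with polyadenylated mRNAs, and exchange into chromatin outside replication. How far the amplification of RNA captured mRNAs without a poly(A) tail was not tested, and the paralogs of each family are so alike that signal from a near-identical copy cannot be told apart from that of the named gene. Of the 30 replication-dependent genes, 23 lie on chromosome 13, 4 on chromosome 3 and 3 on chromosome 11.

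The stretches of 250 bases before the start site of 6 genes are shown because these genes carry the differences described below: 5 replication-dependent genes, and Macroh2a1 as the replacement gene. They are RefSeq sequences of the mouse build GRCm38.p6, written 5′ to 3′ on the gene's strand. Capitals mark exact matches on either strand to CCAAT (the core bound by NF-Y), ATTTGCA (part of the octamer bound by Oct-1, found in H2B promoters) and TATAAA (the TATA box), and no matches to different motifs overlapped in any member.
H2ac4, chr13:23750838-23751087, plus strand: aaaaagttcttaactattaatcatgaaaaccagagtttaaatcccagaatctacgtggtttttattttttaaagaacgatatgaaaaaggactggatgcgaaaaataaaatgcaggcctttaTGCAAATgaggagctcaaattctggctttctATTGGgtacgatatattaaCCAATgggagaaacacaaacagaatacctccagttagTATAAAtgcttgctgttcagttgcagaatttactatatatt
H2bc3, chr13:23746484-23746733, plus strand: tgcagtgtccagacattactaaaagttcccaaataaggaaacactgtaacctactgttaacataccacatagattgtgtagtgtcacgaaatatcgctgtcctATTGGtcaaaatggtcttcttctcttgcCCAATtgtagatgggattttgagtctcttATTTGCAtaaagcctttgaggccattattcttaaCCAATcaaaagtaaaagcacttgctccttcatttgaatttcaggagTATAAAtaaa
H2bc9, chr13:23543445-23543694, minus strand: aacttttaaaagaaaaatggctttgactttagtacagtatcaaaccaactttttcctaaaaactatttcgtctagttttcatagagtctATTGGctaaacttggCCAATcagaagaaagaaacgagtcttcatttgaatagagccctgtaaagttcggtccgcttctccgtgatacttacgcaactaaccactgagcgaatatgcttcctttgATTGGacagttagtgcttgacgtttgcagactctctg
H1f1, chr13:23763418-23763667, plus strand: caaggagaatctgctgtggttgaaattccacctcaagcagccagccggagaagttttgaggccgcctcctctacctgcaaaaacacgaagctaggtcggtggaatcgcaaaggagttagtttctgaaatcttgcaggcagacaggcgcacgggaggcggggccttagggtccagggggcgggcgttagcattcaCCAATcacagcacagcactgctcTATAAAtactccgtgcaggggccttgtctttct
H1f2, chr13:23738557-23738806, plus strand: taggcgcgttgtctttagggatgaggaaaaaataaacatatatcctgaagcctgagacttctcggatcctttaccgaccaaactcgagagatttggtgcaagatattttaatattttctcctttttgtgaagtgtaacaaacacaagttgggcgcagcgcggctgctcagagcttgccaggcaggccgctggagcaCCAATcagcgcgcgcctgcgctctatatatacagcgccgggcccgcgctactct
Macroh2a1, chr13:56135551-56135800, minus strand: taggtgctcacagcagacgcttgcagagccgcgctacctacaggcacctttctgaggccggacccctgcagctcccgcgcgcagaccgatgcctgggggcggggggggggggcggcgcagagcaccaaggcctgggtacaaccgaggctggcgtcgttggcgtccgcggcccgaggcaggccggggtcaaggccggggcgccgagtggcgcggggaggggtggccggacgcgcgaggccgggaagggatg
A window was given for 36 of the 43 histone genes. CCAAT was found in 84% of the 25 replication-dependent genes with a window (21 genes), in 54.5% of the 11 replacement genes (6 genes) and in 37.5% of all 27025 genes with a window. ATTTGCA was found in 36% of the replication-dependent genes (9 genes, 5 of them H2B and 4 H2A genes), in none of the replacement genes and in 4.02% of all genes. TATAAA was found in 60% (15 genes), in none and in 14.3%, respectively. H2ac4 and H2bc3 held all 3 motifs, H2bc9 and H1f2 only CCAAT, H1f1 CCAAT and TATAAA, and Macroh2a1 none of them. On chromosome 13 the windows of H1f2, H2bc3, H2ac4 and H1f1 follow each other in that order on the plus strand, and H2bc9 lies apart on the minus strand.

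Zeb2 itself went with the labels: its log2 signal was 9.45, 9.05 and 9.32 in Zeb2hi CDPs, 7.49, 7.69 and 7.86 in Zeb2low CDPs, and 6.93 and 6.53 in Pre-CD8 DCs. Of 12 genes of CDP and pre-CD8 DC identity, 4 were higher (Id2, Batf3, Itgax and Zbtb46) and 1 lower (Zeb2) in Zeb2low than in Zeb2hi CDPs, beside 4.5% and 10.3% of all genes. In Pre-CD8 DCs against Zeb2hi CDPs, 8 of the 12 were higher, Id2, Xcr1, Batf3 and Clec9a among them, and 2 lower (Zeb2 and Csf1r). Of all genes, 6.51% were higher and 11.1% lower there. None of the 12 passed between Pre-CD8 DCs and Zeb2low CDPs, beside 0.554% of all genes. Pearson correlations across genes were 0.937 to 0.989 between arrays of a group, the lowest being that of the 2 Pre-CD8 arrays. They were 0.883 to 0.966 between Zeb2low and Pre-CD8 arrays, a range that overlaps the values within groups. Between Zeb2hi and Zeb2low arrays they were 0.894 to 0.936, and between Zeb2hi and Pre-CD8 arrays 0.873 to 0.908. The median log2 signal per array was 4.98, 4.91 and 4.92 in Zeb2hi CDPs, 5.14, 5.08 and 5.07 in Zeb2low CDPs, and 4.97 and 5.04 in Pre-CD8 DCs. Every Zeb2low array thus had a higher median than every Zeb2hi array. Mature neutrophil genes varied both between groups and between arrays of a group. The mean log2 signal of the 12 genes listed was 8.77, 9.70 and 7.85 in Zeb2hi CDPs, 9.55, 11.60 and 10.41 in Zeb2low CDPs, and 11.97 and 9.61 in Pre-CD8 DCs. Zeb2hi array 2 thus lay above Zeb2low array 1 and Pre-CD8 array 2. S100a8, Lcn2 and Ngp were higher in Zeb2low than in Zeb2hi CDPs, and these and Camp were higher in Pre-CD8 DCs than in Zeb2hi CDPs. None of the 12 passed between Pre-CD8 DCs and Zeb2low CDPs. Of 11 erythroid genes 6 were tested and none passed, at mean signals of 4.61 to 4.91, 4.91 to 6.35 and 5.25 to 5.46 in the 3 groups. Of 10 B cell genes 7 were tested, and Cd22 and Cd79a were higher and Cd79b lower both in Zeb2low CDPs and in Pre-CD8 DCs than in Zeb2hi CDPs, at mean signals of 5.20 to 5.51, 5.82 to 6.03 and 5.55 to 5.56. The part of these cells' genes in the histone results was not tested.

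The first comparison asked how histone transcripts differed between Zeb2low and Zeb2hi CDPs. Among the replication-dependent genes, H2ac4, H2bc9, H1f1, H2bc3, H2bc22 and H2aw fell in Zeb2low CDPs, H2bu2 rose, and the other 22 did not pass the test. Of the 12 replacement genes only Macroh2a1 passed the test, and it was lower. Thus 6 of 29 replication-dependent genes were lower and 1 higher at a Benjamini-Hochberg adjusted p under 0.05 (limma), beside 10.3% of all 13356 genes tested that were lower and 4.5% that were higher. The median log2 difference was -0.51 over the replication-dependent genes, 0.14 over the replacement genes and 0.03 over all genes tested, and 21 of the 29 replication-dependent genes against 4 of the 12 replacement genes had a value below 0. The sign of the replacement median turned when arrays were centred on their medians, which were higher in Zeb2low CDPs. Among the 26 tested replication-dependent genes that the platform annotation itself names as histones, 5 were lower and none higher, with a median of -0.52. Replication-dependent genes whose Zeb2low arrays all lay below the Zeb2hi arrays numbered 8, and those whose Zeb2low arrays all lay above numbered 5, beside 21.5% and 20.2% of all genes.

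**Figure D1:**
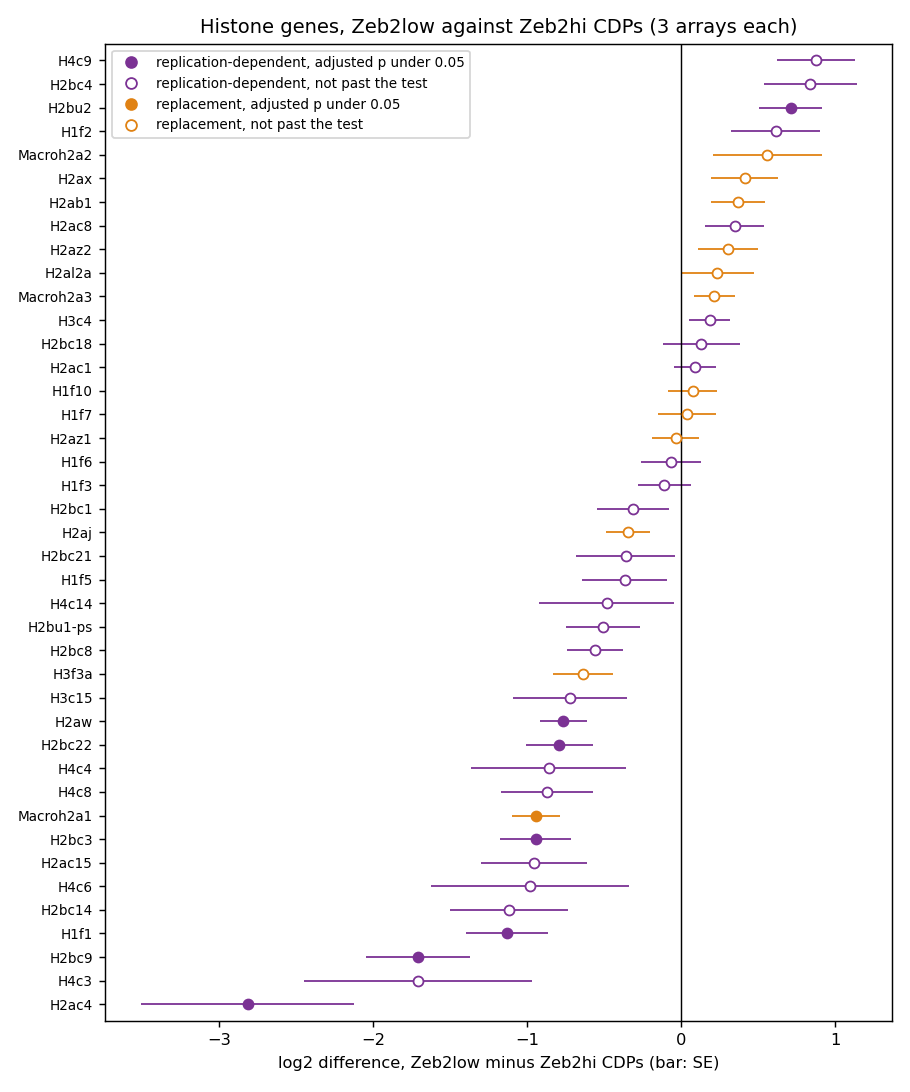
Log2 difference between Zeb2low and Zeb2hi CDPs for the 41 histone genes tested, with the standard error as the bar, in order of size. Filled points passed the test: 7 lie below 0, from H2ac4 at -2.82 to H2aw at -0.77, and H2bu2 lies above 0 at 0.71.

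The calls rested on few arrays. Without Zeb2hi array 2, and likewise without Zeb2hi array 3, Macroh2a1 was the 1 histone gene that passed, and the count over all genes fell from 1978 to 532 and 578. Without Zeb2low array 1 or Zeb2low array 3, 3 histone genes passed (H2aw, H2bc9 and Macroh2a1), and in the other 4 fits that left out 1 array the count was 6 to 10.

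Among H2A genes, whose products pair with H2B in the nucleosome, H2ac4 had log2 signals of 7.97, 9.95 and 9.68 on the Zeb2hi arrays, 5.36, 7.25 and 6.55 on the Zeb2low arrays and 9.33 and 7.33 on the Pre-CD8 arrays. Each Zeb2low array lay below each Zeb2hi array, and the Pre-CD8 arrays reached from just above the highest Zeb2low array into the Zeb2hi range. The difference between Zeb2low and Zeb2hi CDPs was -2.82 ± 0.69 (SE, 3 arrays each, adjusted p = 0.0289), a 7.04-fold lower signal. Its adjusted p was 0.0575 in the blocked fit, which adds the array number as a term for all 8 arrays. That fit takes the Pre-CD8 arrays to share the numbers of the CDP arrays, which was not tested. H2aw, an H2A gene of the small chromosome 11 cluster, had 9.40, 9.73 and 9.53 in Zeb2hi CDPs, 8.63, 8.98 and 8.75 in Zeb2low CDPs and 9.12 and 9.02 in Pre-CD8 DCs. Here the groups kept apart, with the Pre-CD8 arrays between the 2 CDP groups, and the difference between the CDP groups was -0.77 ± 0.15 (adjusted p = 0.0148). H2ac15, the replication-dependent H2A gene with the highest mean signal, had 9.14, 10.18 and 10.19 in Zeb2hi, 8.28, 9.10 and 9.26 in Zeb2low CDPs, and 9.59 and 9.21 in Pre-CD8 DCs. Its CDP groups overlapped, and the difference of -0.96 ± 0.34 missed the test (adjusted p = 0.0934). The gene passed when the 6 CDP arrays were paired by number (0.00274), as did 31% of all genes. H2ac1, known from testis, and H2ac8 had differences of 0.09 and 0.35.

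H2B genes gave 3 lower calls and 1 higher call among 11, beside 10.3% of all genes lower and 4.5% higher. For H2bc9 the log2 signals were 10.34, 11.03 and 11.14 in Zeb2hi CDPs, 8.49, 9.71 and 9.18 in Zeb2low CDPs, and 10.24 and 9.59 in Pre-CD8 DCs. The Zeb2low arrays lay below all Zeb2hi arrays (-1.71 ± 0.34, adjusted p = 0.0147), and the Pre-CD8 values overlapped the Zeb2low range. H2bc3 had 9.0, 9.74 and 9.49, then 8.09, 8.64 and 8.66, then 8.94 and 9.08 in the same order of groups. The CDP groups did not overlap (-0.95 ± 0.23, adjusted p = 0.0272), and the Pre-CD8 arrays lay above all Zeb2low arrays. H2bc22 had 6.08, 6.85 and 6.43 in Zeb2hi CDPs, 5.49, 5.65 and 5.85 in Zeb2low CDPs, and 6.15 and 5.77 in Pre-CD8 DCs. These CDP groups did not overlap either (-0.79 ± 0.22, adjusted p = 0.0424; 0.0779 in the blocked fit).

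H2bu2, an H2B gene of the chromosome 11 cluster, went the other way, at 6.68, 7.03 and 6.66 in Zeb2hi CDPs, 7.46, 7.46 and 7.57 in Zeb2low CDPs, and 7.21 and 7.95 in Pre-CD8 DCs. All Zeb2low and Pre-CD8 arrays lay above the Zeb2hi arrays, and the difference between the CDP groups was 0.71 ± 0.21 (adjusted p = 0.0497; 0.0577 in the blocked fit and 0.0908 with arrays centred on their medians). H2bc14, the H2B gene with the highest mean signal, had 11.31, 12.01 and 11.99, then 9.70, 11.21 and 11.04, then 11.63 and 11.30. The CDP groups did not overlap, but Zeb2low array 1 lay far below the other Zeb2low arrays. The difference of -1.12 ± 0.38 missed the test (adjusted p = 0.0824). The gene passed when the 6 CDP arrays were paired (0.00558), as did 31% of all genes. Of the remaining 6 H2B genes, H2bc4 had the highest difference, 0.84 ± 0.30 (adjusted p = 0.0941), and H2bc8 the lowest, -0.56 ± 0.18 (adjusted p = 0.0730).

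Linker histones of the H1 family bind the DNA between nucleosomes. H1f1 had log2 signals of 9.68, 10.48 and 10.26 in Zeb2hi CDPs, 8.60, 9.27 and 9.16 in Zeb2low CDPs, and 8.34 and 8.85 in Pre-CD8 DCs. All Zeb2low and Pre-CD8 arrays lay below the Zeb2hi arrays, and Zeb2low CDPs were lower than Zeb2hi CDPs by -1.13 ± 0.26 (adjusted p = 0.0249). H1f2 had 8.81, 8.56 and 9.17, then 9.01, 9.94 and 9.43, then 10.62 and 9.87, so the CDP groups overlapped (0.61 ± 0.29, adjusted p = 0.177). H1f5, the H1 gene with the highest mean signal, had 10.49, 11.07 and 10.76, then 9.78, 10.73 and 10.71, then 10.37 and 10.73. Its 3 groups overlapped, with Zeb2low array 1 the lowest (-0.37 ± 0.28, adjusted p = 0.372), and the difference was -0.056 without that array. H1f3 and H1f6, the latter known from testis, differed by -0.11 and -0.06.

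H3 and H4 form the tetramer at the centre of the nucleosome. None of their 8 tested replication-dependent genes passed the main test, beside 14.8% of all genes. The paired fit of the 6 CDP arrays takes same-numbered arrays as pairs. There H4c3, H4c4, H4c6, H4c8 and H4c14 were lower (adjusted p = 0.00126, 0.0169, 0.00257, 0.00932 and 0.0311). H4c9 was higher (0.00630), while H3c4 and H3c15 did not pass. Of all genes, 19.4% were lower and 11.6% higher in that fit. H4c4, the H4 gene with the highest mean signal, had 12.14, 13.16 and 13.30 in Zeb2hi CDPs, 10.78, 12.76 and 12.48 in Zeb2low CDPs, and 13.12 and 12.78 in Pre-CD8 DCs. The groups overlapped, since Zeb2hi array 1 lay below 2 Zeb2low arrays (-0.86 ± 0.50, adjusted p = 0.260), and without Zeb2low array 1 the difference was -0.25. H4c3, H4c6 and H4c8 had differences of -1.71 ± 0.74, -0.98 ± 0.64 and -0.87 ± 0.30 (adjusted p = 0.147, 0.309 and 0.0812), of which H4c8 passed in the blocked fit (adjusted p = 0.0436). H4c9 alone of the 6 H4 genes lay above 0, at 0.87 ± 0.26 (adjusted p = 0.0524), with no overlap between the CDP groups. H3c4 had 8.02, 8.20 and 8.24, then 8.30, 8.27 and 8.44, then 8.17 and 8.05. Its Zeb2low arrays lay just above the Zeb2hi arrays (0.18 ± 0.13, adjusted p = 0.357). The median over the family was -0.11 for the 5 H1 genes, -0.77 for the 5 H2A genes, -0.51 for the 11 H2B genes, -0.27 for the 2 H3 genes and -0.87 for the 6 H4 genes.

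**Figure D2:**
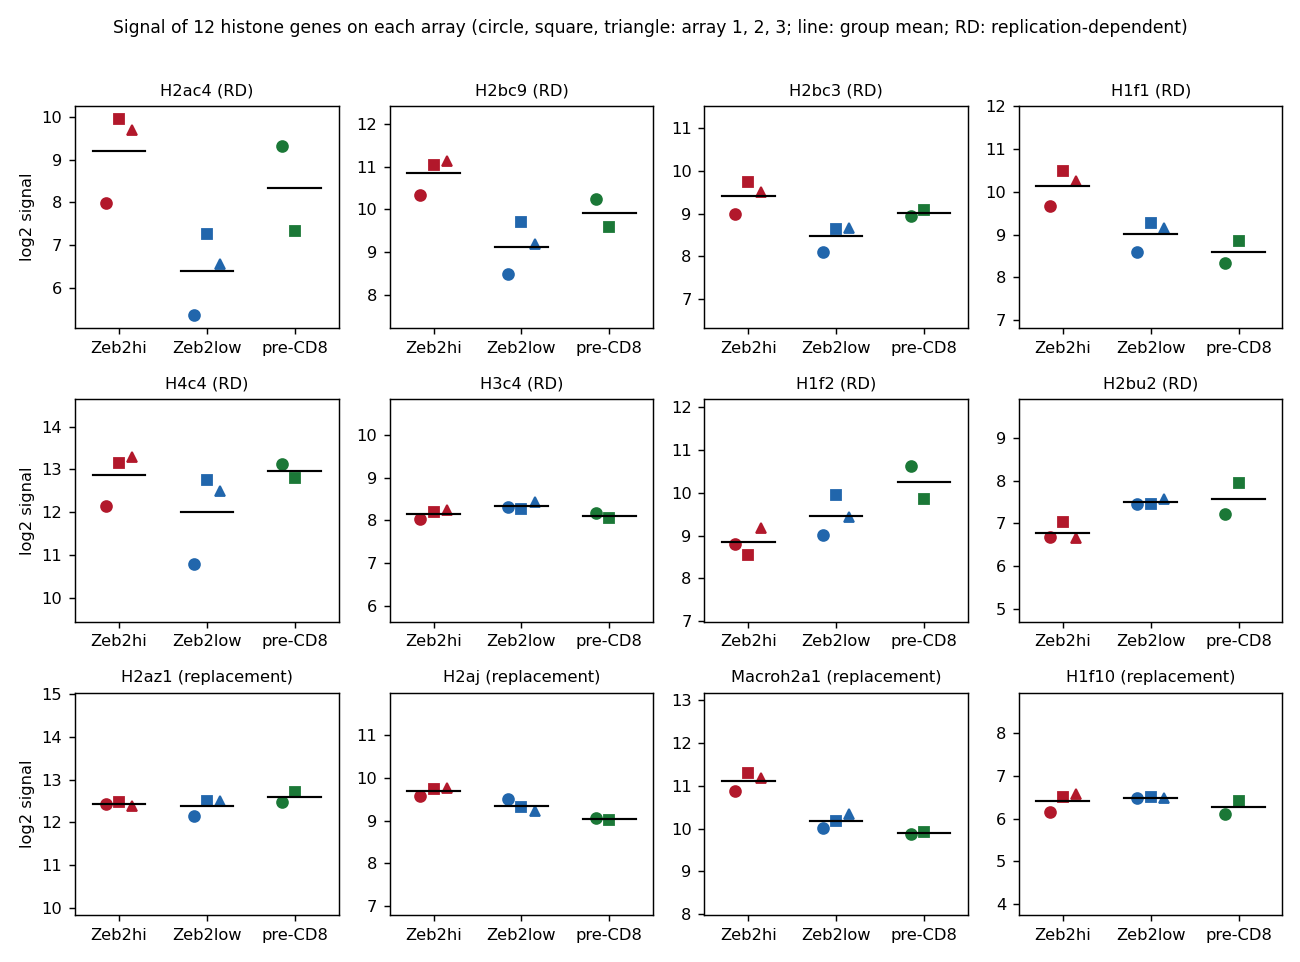
Log2 signal of 12 histone genes on each of the 8 arrays, by group, with the group mean as a line and a vertical axis of the same length for every gene. H2ac4, H2bc9, H2bc3 and H1f1 have all Zeb2low arrays below the Zeb2hi arrays, while H2az1 and H1f10 stay within narrow ranges.

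Among replacement histones, Macroh2a1, which encodes an H2A variant with a large macro domain that is linked to silent chromatin, had log2 signals of 10.89, 11.30 and 11.18 in Zeb2hi CDPs, 10.02, 10.17 and 10.34 in Zeb2low CDPs, and 9.87 and 9.91 in Pre-CD8 DCs. The 3 groups did not overlap. Zeb2low CDPs were lower than Zeb2hi CDPs by -0.94 ± 0.16 (adjusted p = 0.00803), and this gene passed in all 8 fits without 1 array (adjusted p 0.00864 to 0.0460). H2az1, an H2A.Z gene whose product sits at promoters, had 12.43, 12.47 and 12.38, then 12.16, 12.51 and 12.51, then 12.47 and 12.72. Its groups overlapped, with a difference of -0.04 ± 0.15, and its other probe set read 12.09 to 12.46 on the 8 arrays. H2aj, an H2A variant with a different C-terminal tail, had 9.56, 9.75 and 9.77, then 9.51, 9.32 and 9.22, then 9.06 and 9.02. The Zeb2low arrays lay below the Zeb2hi arrays by -0.35 on average, which missed the test.

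H1f10, a replacement linker histone gene, had 6.16, 6.49 and 6.58, then 6.48, 6.51 and 6.47, then 6.11 and 6.42, with a difference of 0.07 ± 0.16 between the CDP groups. That direction turned with arrays centred on their medians (-0.088). H3f3a, 1 of the genes for H3.3, had 4.16, 4.55 and 4.39, then 3.79, 3.74 and 3.65, then 4.44 and 3.78 on its own probe set. This probe set lay above the array's 40th percentile, 4.31 to 4.62, on 3 arrays alone, Zeb2hi arrays 2 and 3 and Pre-CD8 array 1, and below it on all Zeb2low arrays. It thus entered the test through groups in which it was higher, and its difference of -0.64 between the CDP groups is given as a description. Of the other 7 replacement genes, Macroh2a2 had the highest difference, 0.56 ± 0.35, followed by H2ax, whose product is phosphorylated at DNA breaks, at 0.41 ± 0.22. None of the 7 lay below 0, and none passed. They include H1f7, H2al2a and H2ab1, known from testis, which had log2 signals of 4.29 to 5.58. The pseudogene Macroh2a3, at 4.32 to 4.73, is also among them.

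Same-numbered CDP arrays deviated together, so differences were also taken within the 3 same-numbered pairs. That pairing was read from the values tested here, and the labels do not state it. All 3 differences lay below 0 for 18 of the 29 replication-dependent genes and above 0 for 7, beside 32.2% and 32.5% of all genes. The corresponding counts for the 12 replacement genes were 3 and 5. H2ac4 was lower by -2.62, -2.70 and -3.14 in pairs 1, 2 and 3, H4c3 by -2.12, -1.38 and -1.64, and H2bc9 by -1.85, -1.32 and -1.96. When the array number entered a fit of the 6 CDP arrays alone, 15 replication-dependent genes were lower and 3 higher, and 2 replacement genes were lower and 1 higher, beside 31% of 13129 genes called, 19.4% lower and 11.6% higher. H2ac4, H2bc9 and H1f1 were lower in that fit (adjusted p = 0.000355, 0.00113 and 0.00158), and H2bc4, H2bu2 and Macroh2a2 were higher (adjusted p = 0.0230, 0.0116 and 0.0485). H2bc8 and H2bu1-ps also passed as lower there (0.0288 and 0.0260). The 2 lower replacement genes were Macroh2a1 and H3f3a, the latter with the limit given for its probe set. In the blocked fit of all 8 arrays, 5 replication-dependent genes and Macroh2a1 were lower and none was higher, beside 11.6% of all genes called, 8.46% lower and 3.16% higher.

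**Figure D3:**
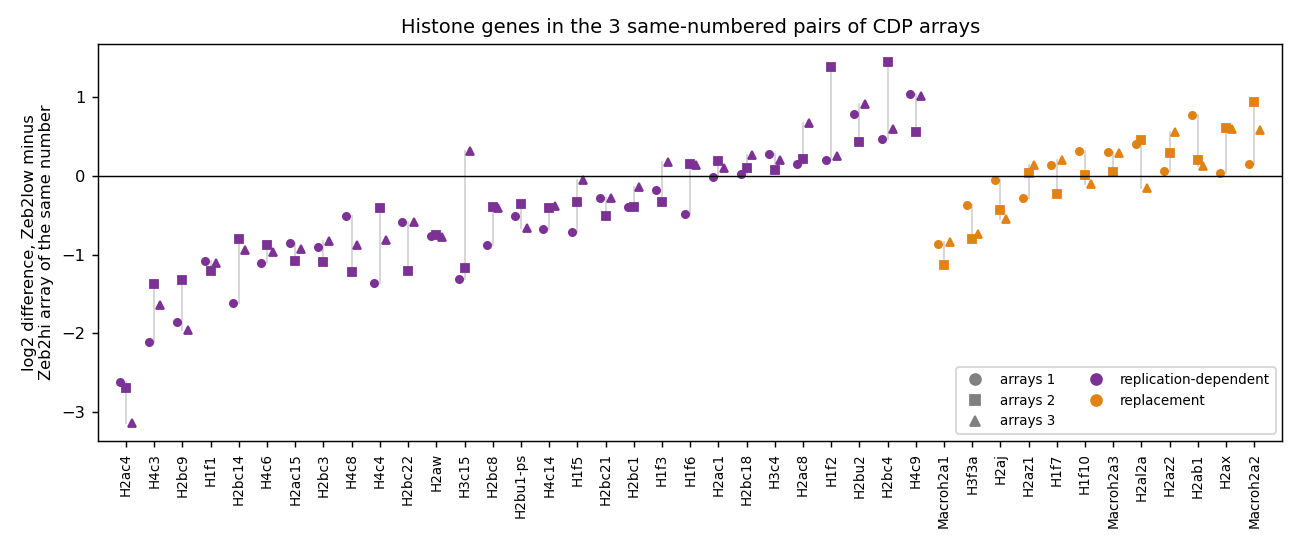
Log2 difference between the Zeb2low and the Zeb2hi array of the same number for each histone gene tested, replication-dependent genes on the left and replacement genes on the right. All 3 points lie below 0 for 18 of 29 replication-dependent genes and for 3 of 12 replacement genes.

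Arrays numbered 1 were low for replication-dependent genes in both CDP groups. The mean log2 signal over the 29 genes was 8.14, 8.68 and 8.59 on the Zeb2hi arrays, 7.53, 8.21 and 8.18 on the Zeb2low arrays, and 8.28 and 8.21 on the Pre-CD8 arrays. Zeb2low array 1 was the lowest of the 8 arrays for 17 of the 29 genes, and without it the median difference between the CDP groups was -0.30. The replacement genes showed no such step, at 7.41, 7.39 and 7.38, then 7.46, 7.39 and 7.39, then 7.17 and 7.21.

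The second comparison, Pre-CD8 DCs against Zeb2low CDPs, gave no histone gene past the test. Both classes had 0 calls in limma, beside 0.554% of all genes (0.217% lower and 0.337% higher), and 4 of the 41 histone genes had an unadjusted p under 0.05, beside 13.2% of all genes. The blocked fit gave 0 calls as well, beside 0.112% of all genes (0.0374% lower and 0.0749% higher). The median log2 difference was 0.25 over the replication-dependent genes, -0.22 over the replacement genes and -0.03 over all genes tested. Replication-dependent genes with a value above 0 numbered 18 of 29, and replacement genes below 0 numbered 9 of 12. H2ac4 had 1.95 ± 0.77 (adjusted p = 0.336), and this fell to 0.95 without Pre-CD8 array 1. The genes without array values above reached 1.23 ± 0.83 for H4c3, 0.98 ± 0.72 for H4c6 and 0.61 ± 0.49 for H4c14, and went down to -1.44 ± 0.39 for Macroh2a2, -0.80 ± 0.29 for H4c9 and -0.45 ± 0.22 for H2az2. Macroh2a2 passed without Pre-CD8 array 1, the 1 such call in the 8 fits that left out an array; its Pre-CD8 signals were 5.36 and 3.84 against 5.99 to 6.10 in Zeb2low CDPs.

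The third comparison set Pre-CD8 DCs against Zeb2hi CDPs. H1f1 fell and H1f2 and H2bu2 rose among the replication-dependent genes, and Macroh2a1 and H2aj fell among the replacement genes. That is 1 lower and 2 higher of 29, and 2 lower and none higher of 12, beside 11.1% of all genes lower and 6.51% higher. H1f1 was lower by -1.55 ± 0.30 (adjusted p = 0.00941), and H1f2 was higher by 1.40 ± 0.32 (adjusted p = 0.0200), with the Pre-CD8 arrays above all Zeb2hi arrays for H1f2 and below them for H1f1. Macroh2a1 was lower by -1.23 ± 0.18 (adjusted p = 0.00293) and H2aj by -0.66 ± 0.16 (adjusted p = 0.0222). H2bu2 was higher by 0.80 ± 0.23 (adjusted p = 0.0443). In the blocked fit the adjusted p was 0.0537 for H1f2, 0.0651 for H2aj and 0.0683 for H2bu2, and H2bc21 passed as lower (adjusted p = 0.0467). Whether the Pre-CD8 arrays share the CDP numbers, as that fit takes them to, was not tested. Macroh2a1 passed in all 8 fits that left out 1 array, H1f1 in 7 (adjusted p = 0.0647 without Pre-CD8 array 1) and H1f2 in 6 (0.0709 without Zeb2hi array 2 and 0.125 without Pre-CD8 array 1). H2aj passed in 4 of them, not without Zeb2hi array 2 or 3 or either Pre-CD8 array (adjusted p 0.0737 to 0.0818), and H2bu2 in 2, those without Zeb2low array 1 and without Pre-CD8 array 1. The blocked fit had 3 histone genes lower and none higher, beside 11.9% of all genes called, 7.47% lower and 4.45% higher. Replication-dependent genes whose Pre-CD8 arrays all lay below the Zeb2hi arrays numbered 6, and those with all above numbered 2, beside 27.1% and 21.4% of all genes.

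Most replication-dependent genes showed no called difference between Pre-CD8 DCs and Zeb2hi CDPs, as did most of all genes, of which 17.6% were called. A missing call does not show that the groups were equal. The median was -0.23 over the replication-dependent genes, -0.15 over the replacement genes and -0.02 over all genes. H2ac4 had -0.87 ± 0.77, a value that turned to 0.13 without Pre-CD8 array 2, and H2bc9 had -0.92 ± 0.38 (adjusted p = 0.132). The 6 H4 genes had differences from -0.64 to 0.12, with H4c4 at 0.09 ± 0.56. Among the genes without array values above, H3c15 had -1.07 ± 0.41, Macroh2a2 -0.88 ± 0.39 and H4c8 -0.64 ± 0.33 at the low end, and H2ax 0.59 ± 0.25, H2bc4 0.53 ± 0.34 and H2ab1 0.30 ± 0.19 at the high end.

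Genes that act with histones were read from lists. S phase DNA replication genes (35 tested) included 10 lower in Zeb2low than in Zeb2hi CDPs (10.3% of all genes were), with a median of -0.40, 1 lower in Pre-CD8 DCs than in Zeb2low CDPs (Pole, a DNA polymerase subunit, -1.05 ± 0.16, adjusted p = 0.0324; median -0.59; 0.217% of all genes), and 22 lower in Pre-CD8 DCs than in Zeb2hi CDPs (median -0.99; 11.1% of all genes). None was higher in any of the comparisons. Gins1, a subunit of the replicative helicase complex, was lower by -1.51 ± 0.16 in Zeb2low than in Zeb2hi CDPs, and Gins2 (-1.20 ± 0.27) and the clamp loader genes Rfc2 (-1.19 ± 0.23) and Rfc5 (-1.13 ± 0.32) fell too. Against Zeb2hi CDPs, Pre-CD8 DCs were lower for Gins1 (-2.32 ± 0.18), Pola1 (-1.68 ± 0.24), Cdt1 (-1.66 ± 0.48) and Mcm3 (-1.65 ± 0.23). The mean signal of this list was 8.26 to 8.52 in Zeb2hi CDPs, 7.89 to 8.04 in Zeb2low CDPs and 7.37 to 7.48 in Pre-CD8 DCs. Its lowest arrays were the Pre-CD8 arrays, on which the mean over the replication-dependent histone genes was 8.28 and 8.21, beside 7.53 to 8.21 on the Zeb2low arrays.

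**Figure D4:**
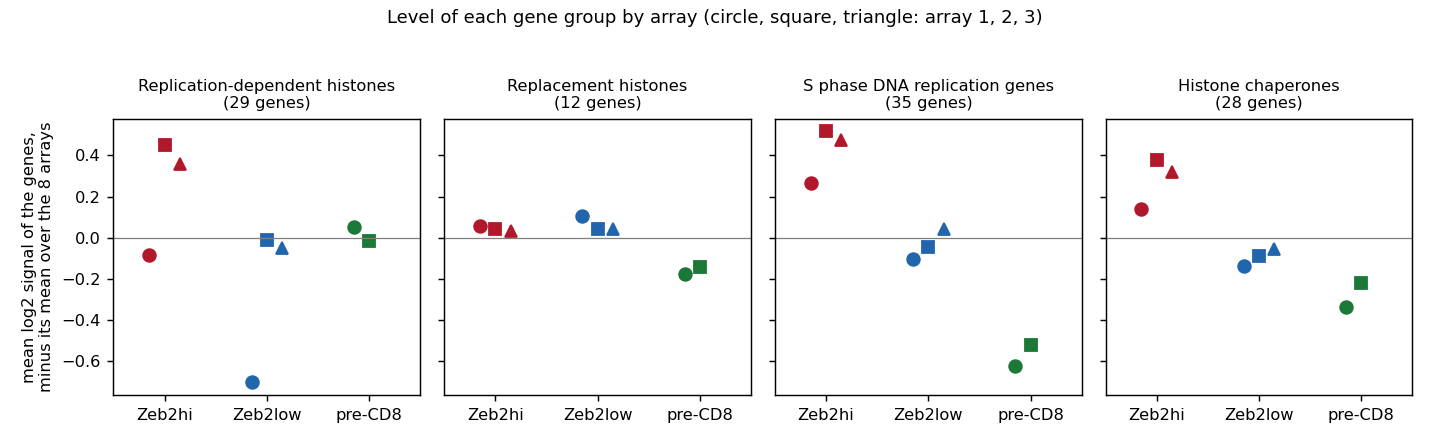
Mean log2 signal over the genes of each group on each array, minus its mean over the 8 arrays, so that groups of genes can be set side by side. The S phase genes are lowest on both Pre-CD8 arrays, the replication-dependent histone genes on Zeb2low array 1.

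Histone chaperones and exchange factors (28 tested of 32) had 6 lower in Zeb2low than in Zeb2hi CDPs (median -0.29; 10.3% of all genes were lower), none past the test between Pre-CD8 DCs and Zeb2low CDPs (median -0.11), and 8 lower in Pre-CD8 DCs than in Zeb2hi CDPs (median -0.49; 11.1% of all genes), with none higher. Ruvbl1 (-1.35 ± 0.15) and Ruvbl2 (-0.96 ± 0.28), ATPases of the complexes that load H2A.Z, the H2A.Z chaperone Vps72 (-1.14 ± 0.29) and Chaf1b (-1.08 ± 0.30), a subunit of the CAF-1 complex that deposits new H3 and H4 at replication forks, fell in Zeb2low CDPs. In Pre-CD8 DCs against Zeb2hi CDPs, Chaf1b (-1.58 ± 0.33), Chaf1a (-0.80 ± 0.18), the acetyltransferase gene Hat1 (-1.36 ± 0.20), the FACT subunit gene Supt16 (-1.35 ± 0.15) and Nasp (-1.33 ± 0.28), whose product holds soluble H3 and H4, fell. Chaf1a had -0.30 ± 0.16, Nasp -0.11 ± 0.25, Asf1b -0.07 ± 0.27 and Hira, the H3.3 chaperone, -0.22 ± 0.16 between Zeb2low and Zeb2hi CDPs, and none of these 4 passed there. Asf1b and Hira had 0.12 ± 0.31 and -0.45 ± 0.17 between Pre-CD8 DCs and Zeb2hi CDPs. Between Pre-CD8 DCs and Zeb2low CDPs, Nasp had -1.22 ± 0.28 (adjusted p = 0.116), Chaf1a -0.50 ± 0.18, Chaf1b -0.49 ± 0.33, Hira -0.24 ± 0.17 and Asf1b 0.19 ± 0.31.

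Genes for transcription and 3′ processing of histone mRNA (15 tested of 17) had none past the test between Zeb2low and Zeb2hi CDPs (median -0.06) or between Pre-CD8 DCs and Zeb2low CDPs (median -0.25), and 3 lower and none higher in Pre-CD8 DCs than in Zeb2hi CDPs (median -0.21; 11.1% of all genes were lower). The 3 were Casp8ap2 (-0.94 ± 0.22), the cleavage factor gene Cstf3 (-0.87 ± 0.19) and Npat (-0.79 ± 0.22), the coactivator of histone gene transcription. Slbp, which binds the stem-loop of histone mRNA, had -0.32 ± 0.20 in Zeb2low against Zeb2hi CDPs and -0.61 ± 0.22 in Pre-CD8 DCs against Zeb2hi CDPs (adjusted p = 0.287 and 0.0943). Npat and Casp8ap2 had 0.16 ± 0.20 and -0.24 ± 0.19 in Zeb2low against Zeb2hi CDPs. In Pre-CD8 DCs against Zeb2low CDPs, Npat had -0.95 ± 0.22, Casp8ap2 -0.70 ± 0.22 and Slbp -0.29 ± 0.22, and the lowest adjusted p of these 3 was 0.120.

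Another 32 probe sets are annotated to several histone genes at once, or to a histone gene and a related locus, and were tested in a fit of all 15585 annotated probe sets that passed the filter. Over the 10 H3 sets the median was 11.59, 12.66 and 12.69 in Zeb2hi CDPs, 10.55, 12.33 and 12.50 in Zeb2low CDPs, and 12.25 and 12.46 in Pre-CD8 DCs. The arrays numbered 1 were lowest in both CDP groups. Over the 6 H4 sets it was 11.97, 12.88 and 12.80, then 11.57, 12.57 and 12.58, then 12.70 and 12.61, again lowest on the arrays numbered 1. Between Zeb2low and Zeb2hi CDPs the differences were -0.55 to -0.46 for the H3 sets and -0.74 to -0.63 for the 7 H2B sets. The H4 sets had -0.41 to -0.29, where -0.41 came from a set with low signals, 3.90 to 6.18. For 2 sets of H2A with others they were -0.25 to -0.24, and for 1 set of H2B with H1 -0.07. None of these passed, beside 15.4% of all annotated probe sets. Most sets of a family had near-equal values, and some had the same values on every array. They are therefore not separate readings.

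Of the sets for H3.3, the 4 for H3f3a had differences of -0.90 to -0.28 between Zeb2low and Zeb2hi CDPs, and 1 of them passed (adjusted p = 0.0459). That set had 10.81, 11.27 and 11.26 in Zeb2hi CDPs, 10.27, 10.21 and 10.17 in Zeb2low CDPs, and 11.12 and 10.12 in Pre-CD8 DCs. The CDP groups did not overlap, and the Pre-CD8 arrays fell on either side of the gap between them. The 2 sets for H3f3b, the other H3.3 gene, had -0.46 to -0.36. No shared set passed between Pre-CD8 DCs and either CDP group, beside 0.449% and 17.1% of all annotated probe sets.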

How the data were processed

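The deposited intensity values are linear and, per the submitters' processing notes, come from RMA in Expression Console, whose version those notes do not give. Of 28853 probe sets, 21789 had 1 gene in the platform annotation, 1621 several and 5443 no name. These intensities, as deposited, were converted to log2 here. Genes needed at least 2 arrays above the array's 40th percentile and took the probe set of highest mean signal, so 13356 genes were tested. All 8 arrays entered 1 limma fit (limma 3.58.1, R 4.3.3, lmFit and eBayes, 5 residual degrees of freedom), two-sided, with Benjamini-Hochberg adjustment within each of 3 comparisons at 0.05. Values after ± are standard errors of the fit. All 45 member probe sets matched RefSeq symbols. The number of arrays limits the precision.

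Arrays with the same number in the CDP groups deviated from their group means together. The r was 0.478, 0.407 and 0.308 for numbers 1 to 3, against -0.425 to 0.143 for unlike numbers. The numbers were therefore taken to pair the arrays, and the labels give the numbers alone. The pairing was thus read from the same values that the paired fit tests. Deviations cancel out within a group, so the r of unlike numbers follows in part from that of like numbers. The paired fit of the CDP arrays also leaves fewer residual degrees of freedom than the main fit. Simulated data on which the main fit was tried had noise drawn separately for each array. They lacked the shared deviation of same-numbered arrays, so that trial does not cover it. Members and lists were chosen with earlier results of these data known. Named were H2ac4, every member past a test, the member with the highest mean of each family and class, the 3 most distant others per direction, up to 4 listed genes per direction and comparison, and 8 regulators fixed by name. Alternatives were other filters, normalizations, probe set rules, array weights, the replicate block and fits without single arrays.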

Additional observations from a re-analysis of the deposited data

How the results depend on the processing

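Direction and calls were recomputed under other filters, normalizations, probe set rules, weights and sample choices, and 1 setting, the test of shared probe sets, was chosen after seeing the data. In Zeb2low against Zeb2hi CDPs, array weights raised the calls over all genes to 4467 and over histone genes to 20, and the replicate block over the 6 CDP arrays gave 4072 and 21. Over all 8 arrays the block changed no histone call beyond those named in the report. Fits without 1 array gave 532 to 2222 and 1 to 10, a replication-dependent median of -0.72 to -0.30, and a replacement median of 0.080 to 0.20. In Pre-CD8 DCs against Zeb2low CDPs they gave 20 to 117 and 0 to 1 calls and medians of 0.07 to 0.32 and -0.30 to -0.060; against Zeb2hi CDPs, 1173 to 2779 and 2 to 5 calls and medians of -0.33 to -0.08 and -0.15 to 0.0057. Calls over all genes between Pre-CD8 DCs and Zeb2low CDPs were 15 with the replicate block, 41 without Zeb2low array 1 and Pre-CD8 array 1 and 16 with these 2 groups alone; the histone count was 1 without those 2 arrays. With the replicate block the histone count between Pre-CD8 DCs and Zeb2hi CDPs was 3.

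The median of the replacement genes also depended on the setting. A change was listed when it reached the pooled SD of the class mean between arrays of a group. That SD was 0.028 for the replacement genes and 0.31 for the replication-dependent genes. The same shift could thus be listed for the first class and not for the second. In Zeb2low against Zeb2hi CDPs it was 0.21 with no filter, 0.075 with the 60th percentile as filter, 0.087 after quantile normalization, -0.019 with arrays centred on their medians, 0.10 with array weights and 0.080 without the 2 arrays. In Pre-CD8 DCs against Zeb2low CDPs it was -0.29 with the stricter filter, -0.17 after quantile normalization, -0.12 centred, -0.17 with weights, -0.18 with every probe set, -0.24 with the block, 0.0056 without the 2 arrays and -0.18 with shared sets. Against Zeb2hi CDPs it was -0.22 centred, -0.10 with weights, -0.11 with every probe set, 0.0057 without the 2 arrays and -0.11 with shared sets. Centring shifted the median of all genes by -0.16 between Zeb2low and Zeb2hi CDPs, so that 14.2% of the calls there were higher, against 30.4%; quantile normalization gave 40.9%. In that comparison quantile normalization ended the calls of H1f1 (adjusted p = 0.0668) and H2bc3 (adjusted p = 0.0635), and in Pre-CD8 DCs against Zeb2hi CDPs that of H2aj (adjusted p = 0.0886). The call of H2bu2 against Zeb2hi CDPs ended with no filter (adjusted p = 0.0566 in Zeb2low CDPs and 0.0515 in Pre-CD8 DCs), with centring (0.0908 and 0.0576) and, in Pre-CD8 DCs, with weights (0.0557) or the 2 groups alone (0.0801). Without the 2 arrays those of H2bc22 (0.0788) and H2bc3 (0.0566) in Zeb2low CDPs and of H1f2 (0.0584) in Pre-CD8 DCs ended. Where 1 Pre-CD8 array was left, it was assumed to vary like the other groups.

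Reversed signs touched uncalled genes. In Zeb2low against Zeb2hi CDPs, H1f10 was -0.088 centred and -0.015 with weights, and -0.049 to 0.16 in fits without 1 array. H2az1 was 0.10 after quantile normalization, 0.049 with weights, 0.030 over both probe sets and 0.082 without the 2 arrays, and -0.094 to 0.082 in fits without 1 array. In Pre-CD8 DCs against Zeb2low CDPs, H1f5 was -0.0089 after quantile normalization and -0.066 with weights, and -0.17 to 0.32 in fits without 1 array, and H2bu2 was -0.28 to 0.45 in those fits. Against Zeb2hi CDPs, such fits gave -0.30 to 0.0045 for H1f10, -1.87 to 0.13 for H2ac4, -0.10 to 0.023 for H3c4, -0.59 to 0.071 for H3f3a and -0.27 to 0.30 for H4c4. There H1f10 was 0.0045 without the 2 arrays, H3c4 was 0.072 after quantile normalization and 0.0064 with the block, and H4c4 was -0.17 with weights and -0.082 without the 2 arrays. The cause of these changes was not tested. The probe sets of H3f3a, H1f8 and H3c7 lay below the 40th percentile on most arrays, which limits what they can show.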
